A study of Gasterosteus aculeatus with 9 samples.

Results

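Cytosolic ribosomal proteins are the proteins that, together with ribosomal RNA, build the small and the large subunit of the ribosome. The small subunit reads the messenger RNA, and the large subunit joins the amino acids into a chain. Each ribosome holds about equal numbers of its proteins, so their messengers are usually abundant and rise and fall together, and growing or secreting tissues carry more of them. In this data set they were the transcripts whose first matching Swiss-Prot entry is named RL or RS followed by 1 or 2 digits with an optional final letter, or RLA0, RLA1, RLA2 or RSSA. The rule found 417 of 98643 transcripts, under 105 of 10495 entry names. The members were chosen by name only, and no expression value was used.

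The transcripts were measured by RNA-seq in gills of 9 wild three-spined sticklebacks (Gasterosteus aculeatus) of the River Boye, a German river with a chloride gradient, with 3 fish per station and no pooling of fish. Station B was the reference site (12.912 mg/L chloride), station A the mid-salinity site in the main channel (26.378 mg/L) and station C the high-salinity site in a tributary (32 mg/L). The study compared the stations to find genes that respond to salinity, and age, sex and genotype of the fish are not given in the sources used here. Fish are written below by station and replicate number, as B1 to B3, A1 to A3 and C1 to C3. Levels are CPM, the deposited counts of a transcript scaled to the same total of all counts in each fish, and the level of a name is the sum over its transcripts. Each chloride level was a single station, so station and salinity cannot be told apart, and in a whole gill fewer cells of a type and less RNA per cell cannot be told apart either.

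The counts summed to between 22049066 and 46214540 per fish, and a count of 3, taken as the limit of detection, was at most 0.136 CPM. Markers of gill epithelium summed to 6240.5 to 11865 CPM in 8 of the fish, and markers of ionocytes (the ion-transporting cells of the gill) to 1714 to 7535 CPM. C2 stood apart from the others. Its rank correlation with the other fish over all names was 0.765 to 0.786, against 0.900 to 0.941 among the other 8, and its gill epithelium markers summed to 1919 CPM and its ionocyte markers to 543 CPM, with the carbonic anhydrase CAH2 at 0. Liver markers, with 9 of 12 listed names present, summed to 40945 CPM in C2 and to 3.91 to 11.9 CPM in the others, and muscle markers, with 9 of 12 present, to 15707 CPM against 752 to 9225. The TMM normalisation of edgeR over all 9 fish gave C2 a factor of 0.590, against 0.994 to 1.15 in the other fish, which raises its levels relative to plain CPM. The tests below computed the factors again from the fish of each comparison, and those factors are not given here. The edgeR medians and counts that use station C are therefore given with and without C2, and the part of the liver and muscle RNA in them was not tested.

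The ribosomal protein transcripts made up between 3.997% and 5.87% of all counts of a fish. At station B the share was 4.37% in B1, 4.59% in B2 and 5.87% in B3, at station A 4.06% in A1, 4.97% in A2 and 4.44% in A3, and at station C it was 3.997% in C1, 4.58% in C2 and 4.31% in C3. B3 was the highest of all fish, and the ranges of the stations overlapped. The reference station B had a mean of 4.94% ± 0.81 (SD, n = 3), station A had 4.49% ± 0.46, and station C had 4.30% ± 0.29, or 4.16% without C2. An exact two-sided permutation test gave p = 0.6 for A vs B, p = 0.2 for C vs B and p = 0.6 for C vs A. Adjusted over the 9 sums tested in this way each p was 0.6, and 3 fish against 3 cannot give a p under 0.1. The 95% Wilson interval of a share was at most 0.00824 percentage points to either side, which covers counting error only and is small beside the differences between fish of a station. On the TMM scale, with the factors from all 9 fish, C2 moved from the middle to the top. It had 77698 TMM-normalised CPM against 34839 in C1, 37977 in C3 and 40249.8 to 52873 in the fish of stations B and A.

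**Figure D1:**
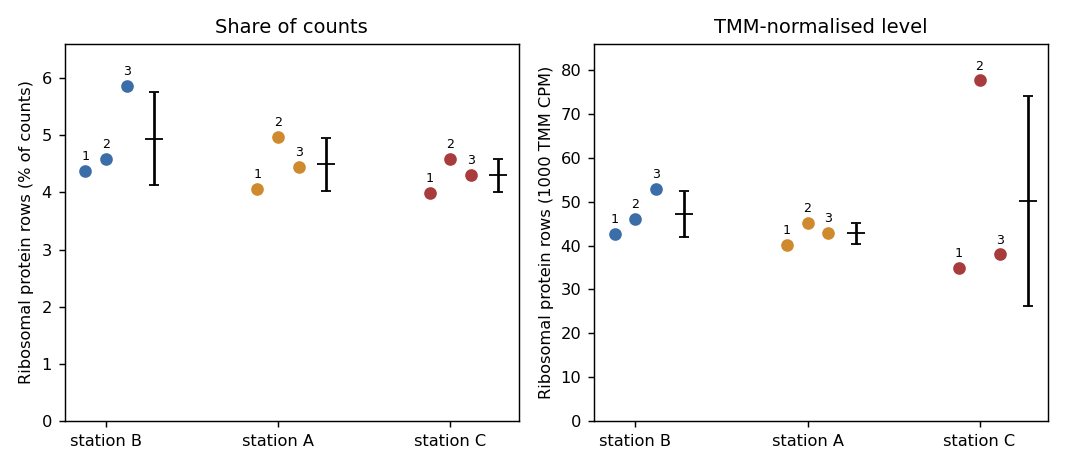
Summed level of the 417 ribosomal protein transcripts in each fish (numbered points), as percent of counts on the left and as 1000 TMM-normalised CPM on the right, with the mean and SD of the 3 fish of a station beside them. C2 lies among the other fish on the left (4.58%) and above all of them on the right (77698 TMM-normalised CPM).

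Small and large subunit proteins kept a nearly fixed ratio. The summed CPM of small subunit names divided by that of large subunit names was between 0.571 (B1) and 0.624 (C2), and its mean was 0.589 ± 0.016 for station B, 0.599 ± 0.015 for station A and 0.611 ± 0.018 for station C (SD, n = 3). The exact permutation p was 0.5 for A vs B, 0.3 for C vs B and 0.5 for C vs A. Each was 0.6 after adjustment, and with 0.1 the lowest p possible this test could not show a difference.

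Levels of the names fell into separate ranges. Of the 81 names with a transcript closest to a vertebrate entry, 40 had a mean between 327 and 2269 CPM over the 9 fish, 41 had a mean of at most 106 CPM, and 0 lay between. The table gives no transcript lengths, so these levels are not per length and the order of single names is not interpreted. The upper range held the stalk proteins RLA0, RLA1 and RLA2, the large subunit proteins RL6, RL7A and RL13A, and the small subunit proteins RS3A, RS8 and RSSA. The lower range held names of the same particle, such as RL3 (a core protein of the large subunit), RL5 and RL11 (which form a complex with the 5S RNA), RS6 (the small subunit protein phosphorylated by S6 kinase) and RS23 (part of the decoding centre). RL5A, another name with an L5 entry, was in the upper range with a mean of 1321 CPM. The low level of RL5 is therefore not that of all L5 transcripts. RL3, for example, was at 13.3, 12.7 and 32.5 CPM in B1 to B3, at 12.999, 15.9 and 26.0 CPM in A1 to A3 and at 23.6, 16.1 and 11.1 CPM in C1 to C3. Transcripts without an entry were not searched, so a low level says only that few counts lay in transcripts carrying that name.

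Further counts lay in transcripts that carry a ribosomal protein entry only in second or later place, behind another protein, and which the rule left out. There were 22 such transcripts for 11 ribosomal protein names, with 4135 to 6074 CPM per fish, or 9.29% to 10.7% of the level of the members. The transcript DN84_c2_g1_i6, named first for the bone morphogenetic protein receptor BMR1A and then for RS27A (ubiquitin fused to a small subunit protein), had 1207, 1553 and 2081 CPM in B1 to B3, 1055, 1541 and 1006 CPM in A1 to A3, and 1127, 1119 and 1133 CPM in C1 to C3. The transcripts first named for RS27A itself had 6.40 to 21.98 CPM. In the same way RL40, the other ubiquitin fusion, had a mean of 774 CPM behind the scaffold protein HOME3, RL35A 717 CPM behind RCBT1, RS26 481 CPM behind IKZF4, RL23A 326 CPM in 7 transcripts behind BIRC2, and RL4A 845 CPM behind the kinase MP2K1. With both kinds of transcripts, 45 of 85 names had a mean of at least 300 CPM. The counts of a transcript with a later entry cannot be divided between its proteins, so these levels may include counts of the first protein. The sum of the 22 transcripts was lowest in C1 and highest in B3, as was that of the members. Its exact permutation p was 0.6 for A vs B, 0.2 for C vs B and 0.5 for C vs A. Each was 0.6 after adjustment, and a p under 0.1 was not possible.

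Within the upper range the names moved together from fish to fish. B3 was the highest fish for 37 of the 40 names, and it was above B1 and B2 for all 40. C1 was the lowest fish for 21 of them and A1 for 9. This order is in plain CPM. On the TMM scale C2 had the highest sum over all members (77698 TMM-normalised CPM, against 52873 in B3). The median deviation from the mean of the 9 fish was 0.34 on the log2 scale in B3, 0.12 in A2, -0.17 in A1 and -0.20 in C1. The pooled SD between fish of a station was 0.116 to 0.289 (log2 CPM), with a median of 0.172 over the names. After division by the total of the members in the same fish the median SD was 0.0753, so most of the spread was shared by the names. Without C2 these medians were 0.174 and 0.0699. Of the names with at least 10 CPM, RL24, RL27 and RS27L varied least between fish of a station and RL4, RL11 and RL40 most. RL24 had 693, 708 and 844 CPM in B1 to B3, 630.0, 739 and 695 CPM in A1 to A3 and 624, 672 and 644 CPM in C1 to C3.

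**Figure D2:**
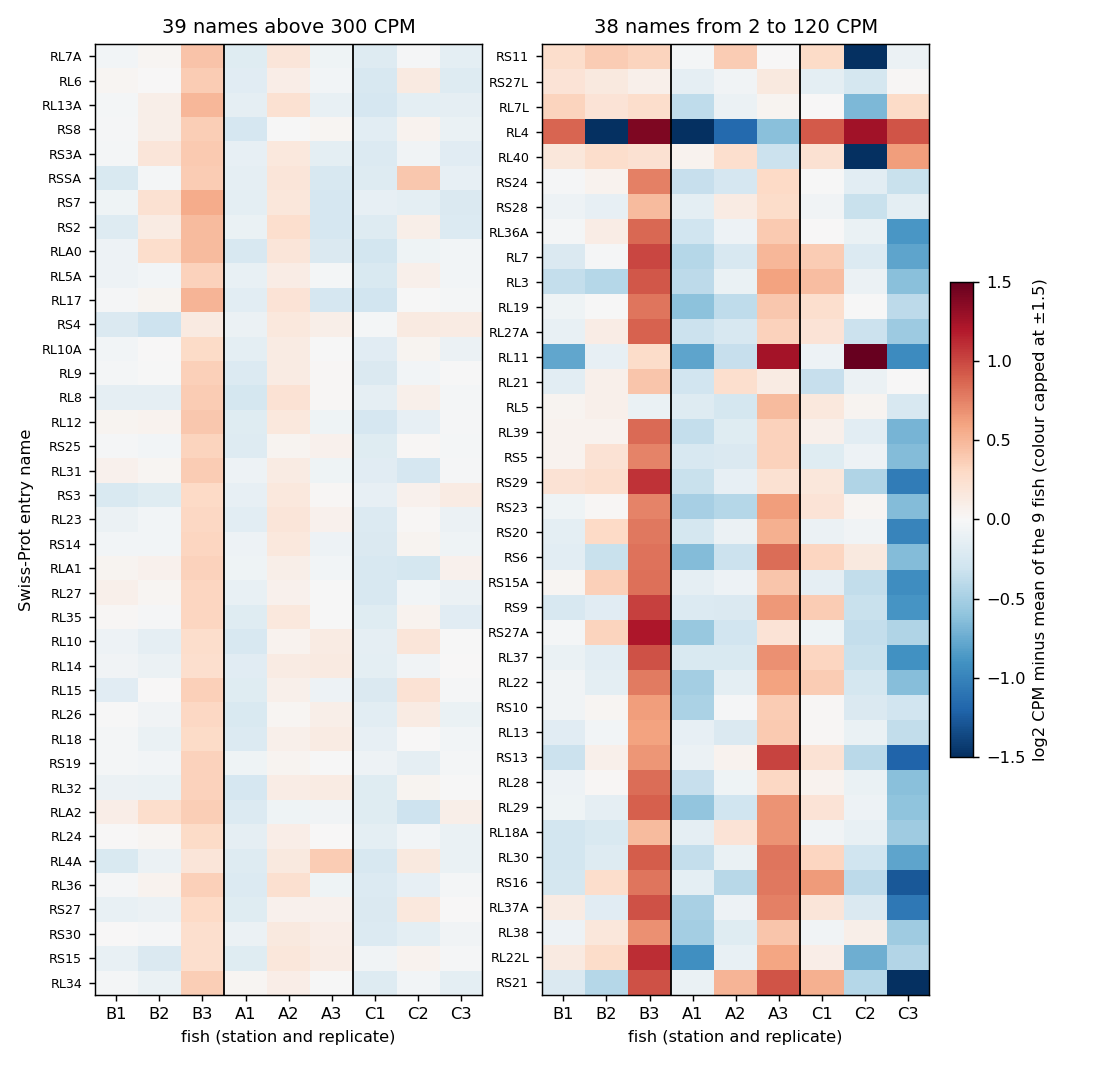
Level of each ribosomal protein name in each fish as log2 CPM minus the mean of the 9 fish, for 39 of the 40 names above 300 CPM (left) and the 38 names from 2 to 120 CPM (right), ordered by mean level, with colours capped at 1.5 on either side. B3 is red for nearly all names on both sides, the differences are larger on the right, and RL4, RL11, RL40 and RS11 depart from their neighbours.

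The names of the lower range shared another order of the fish. In plain CPM, B3 was highest for 28 of the 32 names with means between 2.53 and 27.0 CPM in transcripts closest to vertebrate entries. C3 was lowest for 22 of these names and A1 for 7. Their median deviation was 0.80 on the log2 scale in B3, 0.43 in A3, -0.36 in A1 and -0.62 in C3, against -0.01 in A3 and -0.04 in C3 for the 40 names of the upper range. The median ratio of B3 to C3 was 2.73 in the lower and 1.31 in the upper range. Leaving out the transcripts described below that occur only in B3, A3 and C1, only in A1 or only in A2, the median deviations were 0.80 in B3, 0.43 in A3 and -0.59 in C3. The fish at the ends of this order, B3 and A3 against C3, come from different stations, and fish of 1 station lay apart (B3 from B1 and B2, A3 from A1 and A2).

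No ribosomal protein name was called between stations by edgeR. Almost no names of any kind were called by it, so this says little about the members. A call needed a fold change above 2 and, in the quasi-likelihood test of edgeR, a p not above 0.05 after Benjamini-Hochberg adjustment over all names. In these tests and in the rank correlations above, all names also include assembled genes without a Swiss-Prot entry. The shares of all names are therefore not shares of annotated names only. In A vs B, 83 of the 105 names passed the filter on low counts, 0 were called, and 0 of 21626 names in all were called (0.0%). In C vs B 81 names were tested and 0 called, with 0 of 21950 in all (0.0%), and in C vs A 83 were tested and 0 called, with 1 of 21971 in all (0.00455%). At an unadjusted p under 0.05, 3 members were lower at station A than at B (3.61%, against 2.29% of all names) and 0 were higher (3.23% of all names). In C vs B 0 were lower (1.44% of all names) and 0 higher (2.29% of all names), and in C vs A 0 were lower (1.62% of all names) and 1, RL4, was higher (1.20%, against 2.59% of all names). DESeq2 called 0 members in A vs B (0.509% of all names) and in C vs B (0.278%), and 1, RL4, in C vs A (1.23%). A vs B and C vs B share the fish of station B.

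The median log2 fold change of the members was -0.14 in A vs B, against 0.02 over all names. It was 0.04 in C vs B (0.02 over all names) and 0.23 in C vs A (0.03 over all names). Without C2 it was -0.41 in C vs B (0.00 over all names) and -0.27 in C vs A (-0.03 over all names). The direction in C vs A therefore rested on that fish. In C vs B the median with all fish was close to that of all names. It was also below 0 in some settings that kept C2, such as without B1 (-0.08). In C vs B without C2, 23 of 83 tested members had an unadjusted p under 0.05 and were lower at station C (27.7%, against 3.37% of all names), and 0 were higher (2.83% of all names). The lowest adjusted p among the members was then 0.752, and 0 were called by edgeR. RL6, for example, had a log2 fold change of -0.49 ± 0.14 (SE) and RS7 of -0.56 ± 0.19 in C vs B without C2. In C vs A without C2, 1 of 87 tested members was lower (3.2% of all names) and 1 higher (2.97%) at an unadjusted p under 0.05. On the TMM scale the levels of C1 and C3 were both below those of B1, B2 and B3 for 54 of 81 members, against 12.9% of all names. With C2 kept this was so for 3 members, against 7.06% of all names. In plain CPM, where C2 is not raised, all 3 fish of station C were below all 3 of station B for 16 of 81 members (19.8%, against 5.66% of all names). These names moved together within stations as well, so their number does not stand for that many separate observations. In A vs B the levels of the 3 fish did not overlap and were lower at station A for 8 of 83 members on the TMM scale (5.98% of all names). Leaving out B3 changed the median of A vs B to -0.02 and that of C vs B to 0.19.

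**Figure D3:**
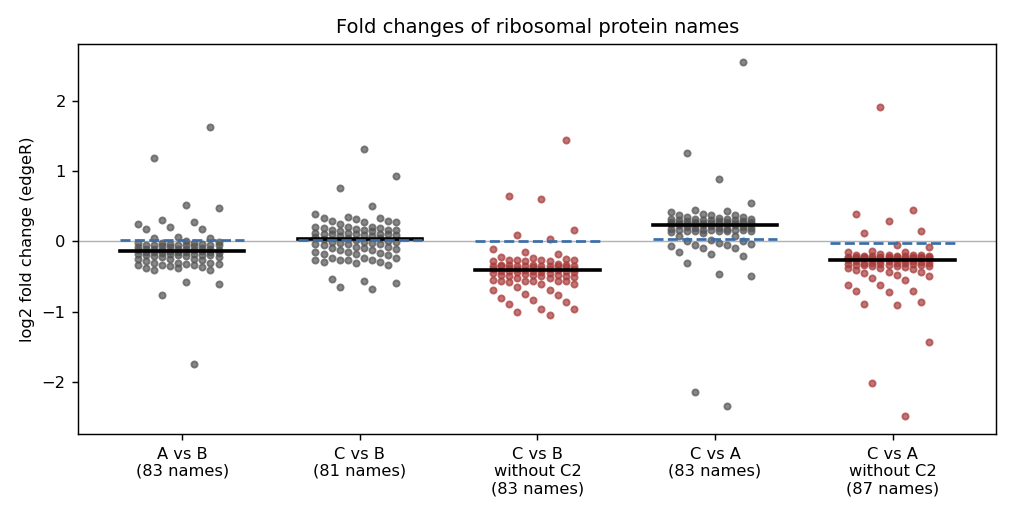
Log2 fold changes of the tested ribosomal protein names (points) from edgeR in the 3 comparisons of stations, in grey with all fish and in red without C2, with their median (black bar) and the median over all names (blue dashed bar). With all fish the points run from -1.74 to 1.63 in A vs B, from -0.68 to 1.31 in C vs B and from -2.35 to 2.55 in C vs A. The medians with station C change sign when C2 is left out (0.04 to -0.41 and 0.23 to -0.27).

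The stalk of the large subunit, which recruits the translation factors, is made of RLA0 (the base, P0) and of RLA1 and RLA2 (the acidic proteins P1 and P2). RLA2 had 783, 878 and 945 CPM in B1 to B3, 637, 704 and 708 CPM in A1 to A3 and 647, 589 and 777 CPM in C1 to C3. In plain CPM all 3 fish of station A and all 3 of station C lay below those of station B. The tests raise C2 (factor 0.590), so for station C this order applies to plain CPM only. The log2 fold change was -0.34 ± 0.14 (SE) in A vs B (edgeR, adjusted p = 0.873) and -0.13 ± 0.33 in C vs B (adjusted p = 0.936), or -0.42 ± 0.15 without C2 (adjusted p = 0.752). RLA0 had 1509, 1904 and 2213 CPM at station B, 1346, 1806 and 1369 CPM at station A and 1319, 1524 and 1541 CPM at station C. RLA1 had 968, 986 and 1193 CPM at station B, 898, 1001 and 913 CPM at station A and 793, 779.7 and 985 CPM at station C. For both names the stations overlapped.

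RSSA (the laminin receptor protein, a component of the small subunit) had 1480.0, 1701 and 2267 CPM in B1 to B3, 1585, 1967 and 1478 CPM in A1 to A3 and 1523, 2298 and 1593 CPM in C1 to C3. It was among the 3 largest rises in C vs A, with a log2 fold change of 0.54 ± 0.57 (SE, edgeR, adjusted p = 0.962), and C2 was the highest of all fish. Without C2 the value was -0.24 ± 0.16. RS4, a small subunit protein, had 1096, 1029.5 and 1400.4 CPM at station B, 1202, 1421 and 1349 CPM at station A and 1249.7, 1398 and 1387 CPM at station C, and its log2 fold change was 0.18 ± 0.16 in A vs B (adjusted p = 0.923) and 0.51 ± 0.43 in C vs B (adjusted p = 0.849), or 0.04 ± 0.15 without C2.

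Among names with at least 10 CPM, the largest rises in A vs B were those of RL11, RS4 and RL4A and the largest falls those of RL4, RS27A and RS29. In C vs B RL11, RL4 and RS4 had the largest rises and RS29, RS27A and RS15A the largest falls. In C vs A these were RL4, RL11 and RSSA, and RS11, RS20 and RS28. All of these had an adjusted p of at least 0.380. The level of RS27A lay mostly in transcripts closest to non-vertebrate entries. Its transcripts closest to vertebrate entries had a mean of 0.80 CPM over the 9 fish. RS29 (a zinc-binding protein of the small subunit) was at 12.97, 13.3 and 23.6 CPM at station B, 8.84, 10.2 and 13.1 CPM at station A and 12.6, 8.15 and 5.41 CPM at station C. In plain CPM, where C2 is not raised, every fish of station C was below the lowest of station B. RS15A was at 10.8, 13.5 and 18.7 CPM at station B and at 9.55, 8.15 and 5.496 CPM at station C. RS20 was at 9.36, 10.6 and 16.3 CPM at station A and at 10.6, 10.8 and 5.67 CPM at station C, with overlap. RS28 was between 20.9 and 36.6 CPM in all fish.

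RL11, a large subunit protein, had its highest level in C2. It was at 7.69, 12.1 and 15.9 CPM in B1 to B3, at 7.58, 10.4 and 31.2 CPM in A1 to A3 and at 12.5, 37.9 and 6.87 CPM in C1 to C3. Its log2 fold change in C vs B was 1.31 ± 0.92 (SE, edgeR, adjusted p = 0.846) with C2 and -0.42 ± 0.40 without it. Another 4 transcripts, all of one assembled gene, carry RL11 behind KLH31, a kelch protein known from muscle. They summed to 8.03, 27.1 and 51.2 CPM in B1 to B3, to 27.3, 50.8 and 32.7 CPM in A1 to A3 and to 6.06, 188 and 24.7 CPM in C1 to C3. Muscle markers were also lowest in B1 (752 CPM) and C1 (882 CPM) and highest in C2 (15707 CPM), and their part in the level of RL11 was not tested.

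C2 was also the lowest fish for RS11 (34.3 CPM, against 94.4 to 131 CPM in the others) and for RL40 (9.28 CPM against 20.9 to 40.4 CPM). Nearly all of RL40 was a transcript closest to an entry of the nematode Caenorhabditis elegans, with 8.32 CPM in C2 and 18.9 to 39.0 CPM in the other fish. Entries of this name hold ubiquitin as well as the ribosomal part, and the table does not show which of them the match covers.

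Paralogs were measured under separate names, and reads shared between near-identical copies could have been divided between them. RS27 and its paralog RS27L had different levels in the fish. RS27 was at 573, 581 and 761 CPM at station B, 547, 647 and 645 CPM at station A and 534, 690.3 and 622 CPM at station C, and followed the other abundant names. RS27L was at 117, 113 and 107 CPM at station B, 93.1, 98.3 and 112 CPM at station A and 92.1, 84.7 and 103 CPM at station C, without the rise in B3. RL7L, a relative of RL7 known from ribosome assembly, was at 106, 97.2 and 101 CPM at station B, 64.6, 79.0 and 86.8 CPM at station A and 84.3, 52.6 and 103 CPM at station C. All fish of station A were below those of station B, with a log2 fold change of -0.40 ± 0.14 (SE, edgeR, adjusted p = 0.873). RL7 itself was at 15.4, 17.7 and 35.9 CPM at station B, 13.3, 15.1 and 25.2 CPM at station A and 23.2, 15.6 and 10.3 CPM at station C. RL22 and RL22L were between 5.82 and 15.5 CPM and between 2.37 and 9.68 CPM, both with the highest value in B3. RL3L, the muscle form of RL3 in mammals, was at 0.739 to 4.54 CPM and highest in C2.

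Single transcripts showed larger differences than the sums. RL4, a large subunit protein that lines the exit tunnel, had a transcript that was missing from 4 fish. DN6852_c0_g2_i1 was at 78.0 CPM in B1, 0 in B2, 104 CPM in B3, 0 in all fish of station A, and at 77.7, 112 and 88.8 CPM in C1 to C3. The other 3 transcripts named RL4 were lower, and the sum over the name was 92.6, 14.5 and 134 CPM at station B, 14.6, 22.6 and 32.9 CPM at station A and 95.6, 121 and 97.0 CPM at station C. Stations A and C did not overlap. The log2 fold change in C vs A was 2.55 ± 0.53 (SE, edgeR, adjusted p = 0.380) and 1.90 ± 0.34 without C2 (adjusted p = 0.253), and the DESeq2 test, with an adjusted p of 0.0024, called it. In A vs B it was -1.74 ± 0.71 (adjusted p = 0.873), and B2 was on the side of station A. More counts lay in other transcripts with an L4 entry, those named RL4A (570 to 877 CPM) and the one behind MP2K1 (680 to 1003 CPM). The latter was added whole, since its counts cannot be divided between MP2K1 and L4. With both kinds the L4 total was 1350.1, 1454 and 1811 CPM in B1 to B3, 1485, 1773 and 1809 CPM in A1 to A3 and 1365, 1752 and 1568 CPM in C1 to C3. The transcript present in 5 fish was 5.66% to 6.41% of this total, which may include counts of MP2K1. The stations then overlapped.

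In the test of single transcripts, 129 members were tested in A vs B and in C vs A and 131 in C vs B. edgeR called 0 in all 3 comparisons, as it did over all transcripts (0.0% in each). At an unadjusted p under 0.05 there were 2 members in A vs B (1.55%, against 3.42% of all transcripts), 1 in C vs B (0.763% against 2.7%) and 2 in C vs A (1.55% against 3.63%). Without C2, 27 of 184 tested members were lower at station C than at B (14.7%, against 2.28% of all transcripts) and 0 higher. Against A, 7 of 188 were lower (3.72%, against 2.3% of all transcripts) and 2 higher, with 0 called in either comparison. The shares of all transcripts that were higher or called without C2 are not given here. Those counts are therefore not read as results about the members. The RL4 transcript just described was among the 2 in C vs A with all fish, with an adjusted p of 0.130. Against the limit of 3 counts in the shallowest library of station A, the mean of station C was at least 683-fold higher for the RL4 transcript, while B2, without it, and B1 and B3, with it, stood side by side at the reference station. DESeq2 called 0 members in A vs B (1.13% of all transcripts), 1 in C vs B (1.41%) and 3 in C vs A (2.65%). The member in C vs B was DN3708_c0_g1_i13 of RS8, at 17.4, 15.2 and 17.1 CPM in B1 to B3, 5.39, 6.84 and 34.3 CPM in A1 to A3 and 5.51, 3.18 and 4.75 CPM in C1 to C3. Its log2 fold change was -1.72 ± 0.32 in edgeR (adjusted p = 0.433) and -1.71 ± 0.20 in DESeq2 (adjusted p = 1.9e-14), and it made up 0.167% to 1.83% of the level of RS8. In C vs A DESeq2 called the RL4 transcript higher and a low transcript of RL27A lower.

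**Figure D4:**
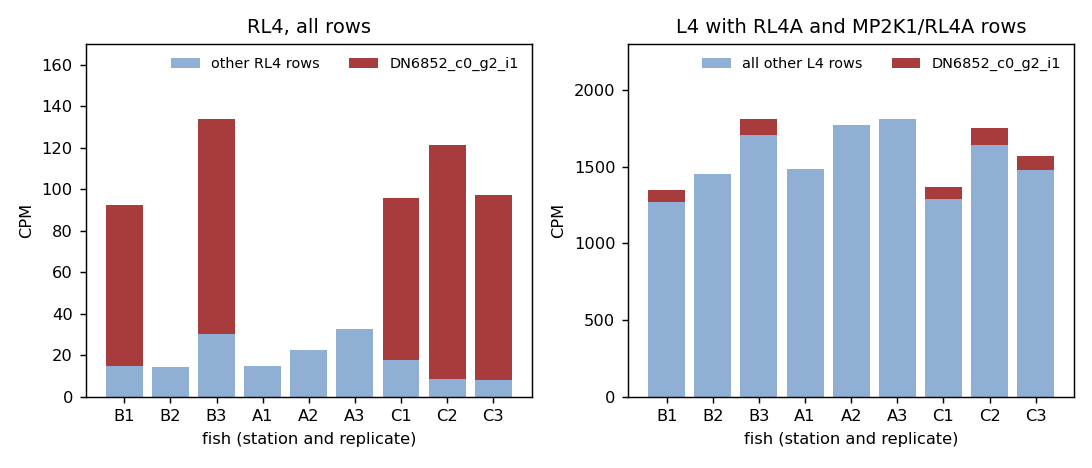
CPM in each fish of all transcripts named RL4 (left) and of all L4 transcripts, with those named RL4A and the one behind MP2K1 (right), stacked, with the transcript that is missing from B2, A1, A2 and A3 in red. The RL4 total falls to 14.5 to 32.9 CPM where the red transcript is missing, while the L4 total on the right stays between 1350.1 and 1811 CPM.

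The presence in B1, B3, C1, C2 and C3 and absence from B2, A1, A2 and A3 was common in the table. Over all transcripts, 240 had at least 20 counts in these 5 fish and at most 3 in the other 4, the largest number for any set of 5 fish, for which the median was 13. They carry 105 entry names, 18 of which equal the symbol of a single gene in the RefSeq annotation of the stickleback assembly fGasAcu3.hap1.1. Of these 18, 14 (77.8%) are on chromosome X, against 3.09% of the 2850 matched names of the whole table. In that annotation the genes for RPL4, RPL27A and RPS13 are on chromosome X. A pair of RL27A transcripts, with at most 0.504 CPM, were found only in B1, B3, C1 and C3. RS13 was detected in all fish, at 6.26, 8.25 and 12.5 CPM at station B, 7.37, 8.13 and 15.9 CPM at station A and 9.10, 5.91 and 3.42 CPM at station C. All fish of station A and 1 of station B were without the RL4 transcript, so in C vs A this set of fish and the station cannot be told apart.

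Many members occurred in few fish. Of the 417 transcripts, 205 were closest to a vertebrate entry and held 99.63% to 99.96% of the level, 86 were closest to an invertebrate animal, 64 to the ciliate Tetrahymena, and 62 to plants, fungi, protists or other groups. The entry names the most similar protein in the database and not the organism the RNA came from. Transcripts closest to non-vertebrate entries summed to 39.97, 64.4 and 126 CPM in B1 to B3, 77.7, 84.5 and 133 CPM in A1 to A3 and 149, 18.4 and 55.9 CPM in C1 to C3. B3, A3 and C1 were the highest, at different stations.

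These 3 fish shared a set of transcripts. With at least 20 counts in B3, A3 and C1 and at most 3 in each other fish, there were 46 ribosomal protein transcripts under 46 different names, 29 of the large and 17 of the small subunit, at 0.678 to 8.42 CPM. They were 11.6% of the 398 transcripts of the table with this presence, while ribosomal proteins were 0.423% of all transcripts. A presence in exactly 3 fish was met by a median of 19 transcripts over the 84 sets of 3 fish, and 398 was the highest number. Of the 46, 24 were closest to invertebrate animals, 18 to vertebrates, 1 to Tetrahymena and 3 to others. Together they had 113 CPM in B3, 148 CPM in A3 and 177 CPM in C1, and at most 0.181 CPM in any other fish. RL3, RL6, RL7, RL8, RL10, RS3A, RS4, RS8 and RSSA each had a transcript in the set beside a higher transcript found in all fish.

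Another 27 ribosomal protein transcripts, under 27 names, were present only in A1, at 0.907 to 3.17 CPM and 42.7 CPM in all. They were 13.6% of the 198 transcripts found only in that fish, and 16 were closest to invertebrate animals and 10 to vertebrates. In A2 alone there were 22, at 0.521 to 2.24 CPM, which were 9.82% of 224, and 9 of them were closest to Tetrahymena. C2 alone had 1315 transcripts, the most of any single fish, of which 0 were ribosomal proteins. The transcripts closest to Tetrahymena summed to 0.696, 12.3 and 5.40 CPM in B1 to B3, 4.42, 26.1 and 9.11 CPM in A1 to A3 and 5.96, 0.857 and 4.67 CPM in C1 to C3, so that A2 and B2 were highest. These sets were found by looking at the data and carry no test. Since the members of a set were in 1 fish per station or in a single fish, none of them separated the stations.

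**Figure D5:**
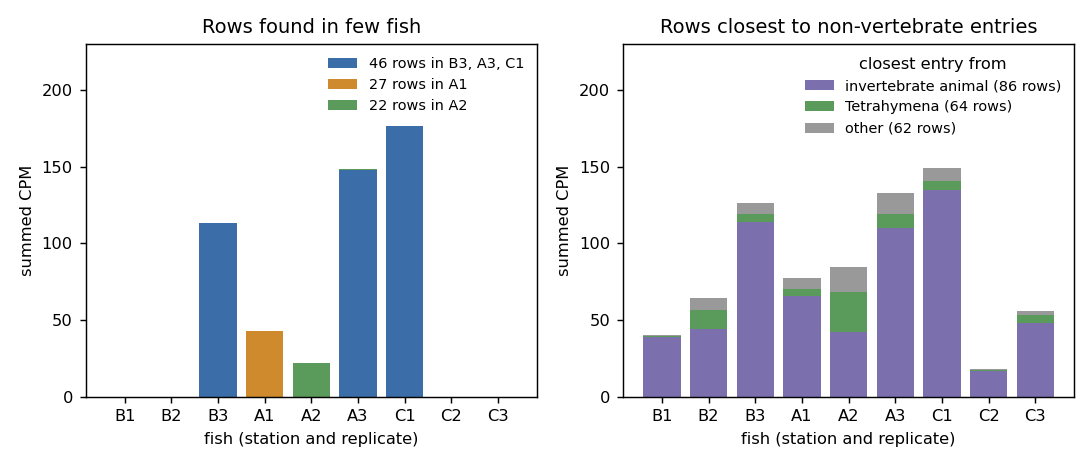
Summed CPM in each fish of the ribosomal protein transcripts found only in B3, A3 and C1, only in A1 or only in A2 (left), and of those closest to entries of invertebrate animals, Tetrahymena or other non-vertebrates (right). The 46 transcripts shared by B3, A3 and C1 reach 113 to 177 CPM there, and A2 has the highest level of transcripts closest to Tetrahymena (26.1 CPM).

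Of the 105 names, 24 had no transcript closest to a vertebrate entry, and several of these were missing from whole stations. Station B lacked 14 names (at most 3 counts in each of its fish), station A lacked 5 and station C lacked 15. Examples are RS10A, RS14A and RL62, which were at 0 in all fish of stations B and C and at 0.677, 0.886 and 1.62 CPM in A2. RL15B and RL23A, also lacking at stations B and C, were at 1.41 and 1.08 CPM in A2 and at most 0.0617 CPM in any other fish. The lower number at station A thus rested in part on low levels in the single fish A2. The numbers were not set against those of all names, so they are not read as a difference of ribosomal proteins between stations. They use first entries only, and RL23A was abundant behind BIRC2. RL10L, a copy of RL10, was at 0 in 8 fish and at 0.0649 CPM in C3, while RL10 was at 831, 797 and 1048 CPM in B1 to B3, 739, 905 and 950.3 CPM in A1 to A3 and 796, 994 and 870.2 CPM in C1 to C3.

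Other lists around the ribosome also had no call. As edgeR called 0.0% of all names in A vs B and in C vs B and 0.00455% in C vs A, this says little about the lists. The proteins of the mitochondrial ribosome, which makes the respiratory chain subunits encoded in mitochondria, were present under 39 names and summed to 895 to 1266 CPM. In A vs B 38 were tested and 0 called, 6 of them had an unadjusted p under 0.05 and all 6 were lower at station A (2.29% of all names were), and the median log2 fold change was -0.25. RM24, a large subunit protein of this ribosome, had 72.5, 70.1 and 65.5 CPM at station B and 55.1, 54.1 and 49.99 CPM at station A, with a log2 fold change of -0.39 ± 0.13 (SE, edgeR, adjusted p = 0.873). In C vs B the median was 0.00 and 0 had an unadjusted p under 0.05. Without C2 it was -0.31, and 14 of 38 were lower at an unadjusted p under 0.05 (3.37% of all names were). In C vs A the median was 0.31, with 0 lower at an unadjusted p under 0.05 (1.62% of all names were). Without C2 it was 0.00, with 1 lower (3.2% of all names were).

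Of 39 tested translation factors edgeR called 0 in each comparison, and the median was -0.11 in A vs B, where 2 were lower at an unadjusted p under 0.05 (2.29% of all names were). With C2 the median was 0.00 in C vs B, with 1 lower (1.44% of all names), and 0.14 in C vs A, with 0 lower (1.62%). Without C2 it was -0.23 in C vs B, with 2 lower (3.37% of all names), and -0.13 in C vs A, with 0 lower (3.2%), so the sign in C vs A turned with that fish. Of 23 to 25 tested ribosome biogenesis names edgeR also called 0, and the median was -0.21 in A vs B, with 1 lower. It was 0.05 in C vs B, with 1 lower, and 0.20 in C vs A, with 0 lower. Without C2 it turned to -0.15 in C vs B, with 3 of 25 lower, and was 0.07 in C vs A, with 0 lower, against the same shares of all names. BRX1, which takes part in the assembly of the large subunit, was the lowest in p. It had 102, 119 and 98.7 CPM at station B, 51.6, 73.1 and 61.2 CPM at station A and 85.6, 31.1 and 55.7 CPM at station C, with log2 fold changes of -0.79 ± 0.17 in A vs B (SE, edgeR, adjusted p = 0.751) and -0.79 ± 0.24 in C vs B (adjusted p = 0.846), or -0.73 ± 0.23 without C2 (adjusted p = 0.752). In DESeq2 the adjusted p of BRX1 was 0.0364 in A vs B, with a log2 fold change of -0.79 ± 0.21, which is under the fold limit, and 0.514 in C vs B. All fish of stations A and C were below those of station B. Of 16 tested names of growth control of translation, such as the kinases of the mTOR pathway, 0 were called and 0 had an unadjusted p under 0.05, with medians of 0.01 in A vs B, 0.04 in C vs B and 0.16 in C vs A. Without C2 the last 2 medians turned to -0.02 and -0.05, and 1 name was higher in C vs B (2.83% of all names). DESeq2 also called 0 names in each of these lists, against 0.509% of all names in A vs B, 0.278% in C vs B and 1.23% in C vs A.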

How the data were processed

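RNA was sequenced from gills of 9 sticklebacks, 3 from each station. As described by the authors, reads were trimmed with Trimmomatic and those of all fish assembled together in Trinity v2.9.1. Weakly expressed transcripts (under 1.0) were dropped, Salmon gave the counts and Trinotate v3.2.2 the annotation. The deposited values are estimated counts (expected counts) per transcript and fish, not normalized, of which 48.8% are exactly whole numbers with zeros counted and 27.9% of those above 0. All columns were matched to a fish by name. Whether counting used strand is not given in the sources used here.

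Each transcript was given the name of its first Swiss-Prot entry. Counts were summed per name, for transcripts without an entry per assembled gene, and then rounded. The 6 fish of a comparison were fitted in R 4.3.3 with edgeR 4.0.16 (filterByExpr, TMM, quasi-likelihood test, station as the only term). Calls needed a fold change above 2 and a p, Benjamini-Hochberg adjusted over all names or transcripts, not above 0.05. The SE beside an edgeR value was derived from its F statistic (size of the log2 fold change over the root of F). DESeq2 1.42.0, other scalings and filters, other sets of transcripts and fits without single fish were run as alternatives. The fish of a station were separate animals from a single site, and the p-values measure only the spread between them. The tests were also run on simulated data, whose outcome is not given here and lends no weight to the calls above. Pooled SDs of log2 CPM used a pseudocount of 0.1. Symbols formed from the 105 names were looked up in the RefSeq table, and 73 were found. RLA2, for example, was looked up as RPLA2, so a name without a match may have a gene under another symbol. No transcript sequences were used here, so none are shown. Figures were drawn with matplotlib 3.10.9.

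Members, lists and alternatives were chosen with earlier results of these data known. The names given with values are, by rule, all called names, the stalk proteins and RSSA, the ubiquitin fusions, paralog pairs, the 3 largest rises and falls in each comparison and the 3 most and least variable names with at least 10 CPM, and names missing from a station. Other names and the sets of fish were chosen after the values were seen. The values of 1 member are not reported here and enter only the counts and sums. Marker lists were gill epithelium, ionocyte, red blood cell, skeletal muscle, liver, leukocyte and gut and pancreas. Red blood cell markers, with only 2 of 9 listed names present, summed to 66.2 to 73.7 CPM in 8 fish and 53.0 CPM in C2. So few names cannot show whether blood content was steady. Leukocyte markers (4 of 11 present) summed to 860 CPM in A1, 972 CPM in A2, 99.2 CPM in C2 and 261 to 393 CPM in the others. Gut and pancreas markers (6 of 11 present) summed to 348, 268 and 957 CPM in C1 to C3. All fish of stations B and A were lower, at 61.1 to 176 CPM. The part of these tissues in the comparisons was not tested.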

Additional observations from a re-analysis of the deposited data

How the results depend on the processing

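The count of 0 called ribosomal protein names in edgeR was kept in each comparison with RLE scaling, without the filter on low counts, with all 9 fish in one fit, with scaling on other transcripts only, with vertebrate entries only, with annotated transcripts only, without the fold limit, and without single fish (0 to 0). It was also kept when transcripts with a later ribosomal protein entry were added, a setting chosen after seeing the data. With the main settings edgeR called 0.0% of all names in A vs B and in C vs B and 0.00455% in C vs A. A count of 0 members is therefore near the share of all names and says little about the members. The shares of all names in the other settings are not given here. DESeq2 called 0 names in A vs B and C vs B and 1 in C vs A, and 0, 1 and 3 single transcripts. The replicate numbers showed no steady pairing of the fish. Same-numbered fish of different stations had correlations of -0.16 to 0.32, against -0.25 to 0.21 for fish with different numbers, and B3 with A3 was the highest (0.32). With the replicate number as a block 0 names and 0 transcripts were called and the medians were -0.15, -0.07 and 0.14. Without single fish the median log2 fold change ran from -0.23 to -0.02 in A vs B, from -0.41 to 0.23 in C vs B and from -0.27 to 0.42 in C vs A, and the value without C2 is the lowest in both comparisons with station C. In C vs B the median, 0.04, was also below 0 without the low count filter (-0.03), with scaling on other transcripts (-0.04) and without B1 (-0.08), and just below it without B2 (-0.0011). Without single fish the mean share ran from 4.48% to 5.23% (B), 4.25% to 4.71% (A) and 4.16% to 4.45% (C). As a share of counts with an entry the means were 5.77% (B), 5.23% (A) and 4.93% (C). Without C2 the median SD between fish was 0.174 for the upper range of names and 0.460 for 36 of the 41 names of the lower range. With C2 these medians were 0.172 and 0.452. With 3 fish per station a small common shift of the members could not be separated from the spread between fish, and the cause of the differences between settings was not tested.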
